A study of Mus musculus with 16 samples.

Results

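The expression of 39 autophagy genes was followed in the striatum of R6/1 mice, a transgenic model of Huntington’s disease (HD), and of their wild-type littermates. The genes were taken by symbol, from the kinase that starts the process to the membrane proteins of the lysosome that ends it, and each symbol matched 1 Ensembl identifier of the 55450 in the deposited count table. All 39 reached 10 counts in 4 or more of the 16 libraries, a filter passed by 19363 genes. The rule used symbols and this filter, and no comparison between groups.

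Autophagy is the route by which a cell encloses cytoplasm, organelles or protein aggregates in a double membrane, the autophagosome, and delivers them to the lysosome for breakdown. The ULK1 kinase complex starts it, the class III PI3-kinase marks the growing membrane with PI3P, WIPI proteins read that lipid, and ATG9 and ATG2 supply membrane lipid. A pair of ubiquitin-like conjugation systems then attaches LC3 and GABARAP proteins to the membrane, the ATG4 proteases prepare and recycle them, and receptors such as p62 tether ubiquitinated cargo to them. Neurons depend on this pathway, mutant huntingtin is among its substrates, and p62 is found on huntingtin aggregates. The measurements below are transcript levels and give no measure of autophagic flux.

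Striatal mRNA was sequenced from 16 untreated male C57Bl/6 mice aged 14 weeks, each library holding RNA of 1 mouse. Both genotypes, wild type and R6/1, were represented by 4 “good” and 4 “poor” performers. The R6/1 line carries exon 1 of the human HTT gene with an expanded CAG repeat, a transgene beside the intact mouse gene, so mouse Htt counts do not check the genotype labels. Within each genotype the mice with the best and the worst combined Z-scores for rotarod, feet clasping and body weight had been named “good” and “poor”. The performance groups were therefore selected from the extremes and do not cover the mice in between.

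Total counts ran from 16155356 to 24897354 per library. The running numbers in the column headers did not fall evenly on the groups: libraries 1 to 8, with totals up to 20250680, held all 4 R6/1 “good” mice but only 1 “poor” mouse of that genotype, with 2 “good” and 1 “poor” of the wild type, whereas libraries 9 to 16, with totals from 21529188, held the rest. The source of these numbers is not given, and comparisons were repeated within each set where mice allowed. Beside the striatal label, 15 markers of medium spiny neurons, the main neurons of the striatum, were followed. None was at 0 in every mouse. Markers of cortex and other neighbouring regions were not either, so presence alone cannot check the label or the dissection. All 15 were lower in R6/1 mice (median log2 fold change −1.39). Each passed the edgeR test by genotype described below, as did 17.0% of all genes tested in the lower direction. Their summed level was 8558 to 13280.0 CPM in wild-type “good”, 8542 to 10970.0 in wild-type “poor”, 3564 to 5599 in R6/1 “good” and 2363 to 3408 in R6/1 “poor” mice. CPM are counts scaled to a common library size with TMM factors. In bulk tissue such as this, fewer cells of a type and less RNA per cell cannot be told apart.

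Which autophagy genes differed between the genotypes was asked by comparing all 8 R6/1 with all 8 wild-type mice. Of the 39 genes, 10 were higher and 2 lower in R6/1 mice at an adjusted p under 0.05 (edgeR quasi-likelihood test, Benjamini-Hochberg adjustment over all genes tested). That is 30.8% of the genes, beside 34.2% of all 19363 genes tested (17.2% higher and 17.0% lower). The higher genes were Ulk1, Sqstm1, Optn, Wdfy3, Atg2b, Atg4b, Atg10, Atg4c, Atg7 and Wipi2, and the lower genes were Wipi1 and Uvrag. The changes were small, with the largest called one a 27.3% rise of Ulk1, and the median log2 fold change over the 39 genes was 0.045, beside 0.0205 over all genes tested. By role, the test was passed by 3 of 4 cargo receptors and adaptors, 3 of 5 lipid transfer proteins and phosphoinositide readers, 2 of 4 ATG4 proteases, 2 of 7 conjugation enzymes, 1 of 5 genes of the initiation complex and 1 of 6 of the class III PI3-kinase complexes. Of the 5 LC3 and GABARAP genes and of the 3 lysosomal genes 0 passed, as the plot of fold changes by role shows.

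**Figure D1:**
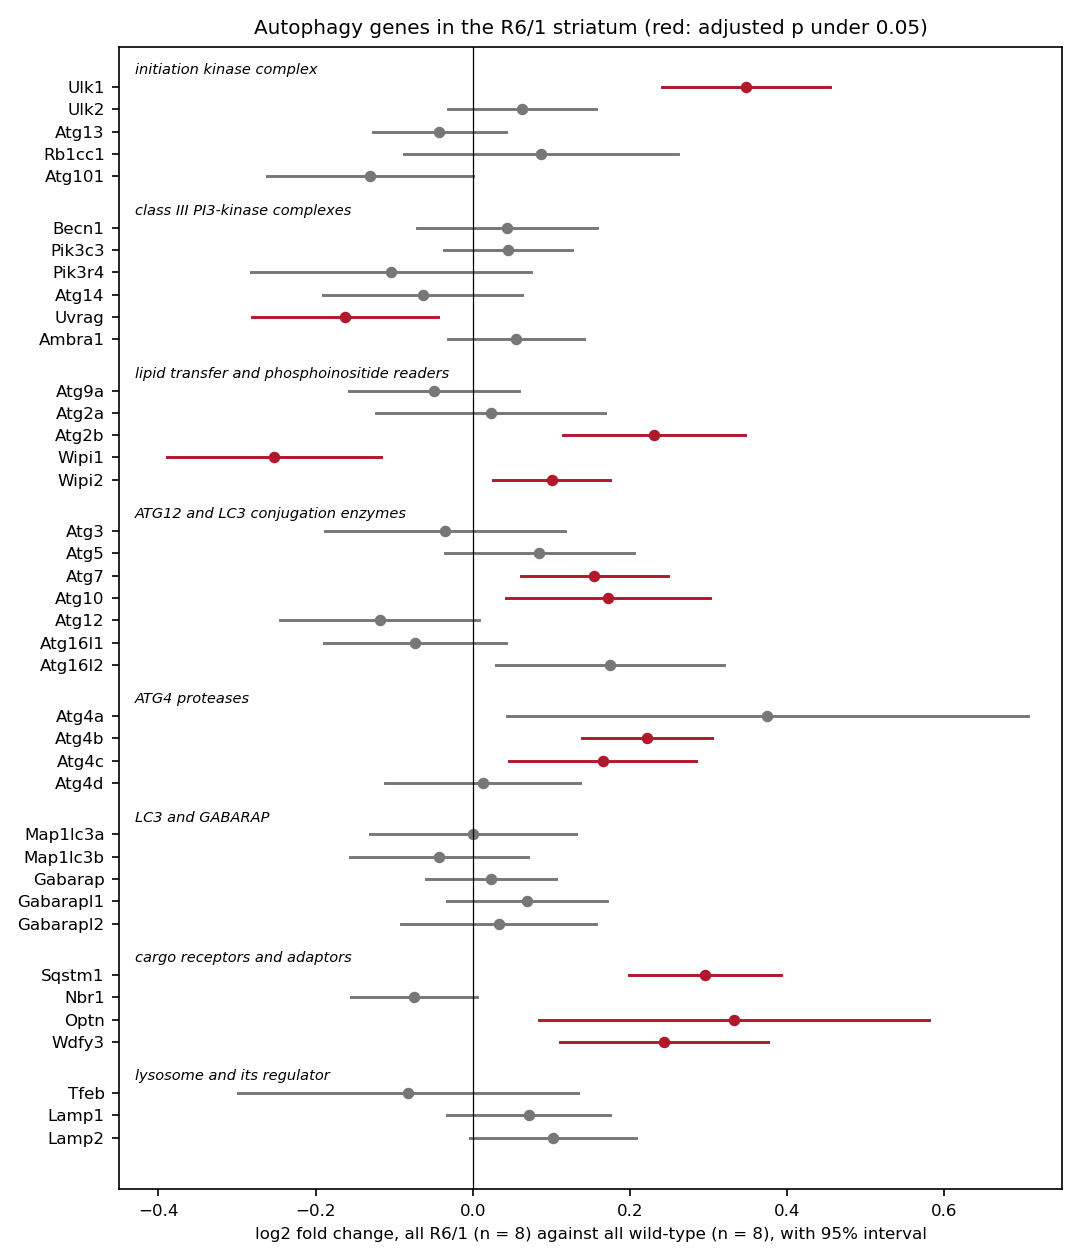
Log2 fold change of each of the 39 autophagy genes in all R6/1 (n = 8) against all wild-type mice (n = 8), grouped by role, with points for the estimate, lines for the 95% interval and red for an adjusted p under 0.05. The 12 red genes lie between −0.25 (Wipi1) and 0.35 (Ulk1), and the 5 LC3 and GABARAP genes lie at most 0.069 from 0.

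Each R6/1 group was also compared with the same 8 wild-type mice, so these comparisons share their controls. In R6/1 “good” mice 5 of the 39 genes were higher (Ulk1, Sqstm1, Atg4b, Atg2b and Atg16l2) and 0 lower, which is 12.8% of the genes beside 24.6% of all genes tested, 12.1% being higher. In R6/1 “poor” mice 6 were higher (Ulk1, Optn, Wdfy3, Sqstm1, Atg2b and Atg4b) and 2 lower (Wipi1 and Uvrag), which is 20.5% beside 28.5%, of which 13.5% were higher and 14.9% lower. In all 3 comparisons Ulk1, Sqstm1, Atg2b and Atg4b were called. Within libraries 9 to 16, where every R6/1 mouse was a “poor” performer, 3 of the 12 genes called by genotype kept their call (Ulk1, Sqstm1 and Wipi1). Within libraries 1 to 8 5 did, and all 12 kept their direction in each set. Of all genes tested, 1423 were called higher and 1978 lower within libraries 9 to 16, and 2088 and 2280 within libraries 1 to 8. With all mice these were 3325 and 3295. Libraries 1 to 8 hold all 4 R6/1 “good” mice, and there the calls of Ulk1 and Atg16l2 in that group were lost (Ulk1 log2 fold change 0.24, adjusted p = 0.0604), while Sqstm1, Atg2b and Atg4b were still called. Of all genes tested, 1640 were higher and 1954 lower in R6/1 “good” mice within those libraries, beside 2350 and 2408 with all wild-type mice.

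Of the initiation kinase complex, made of the ULK kinases with ATG13, FIP200 (Rb1cc1) and ATG101, only Ulk1 passed the test. Ulk1 (ENSMUSG00000029512, chr5:110784488-110810097, minus strand, GRCm38) encodes the kinase that mTORC1 holds inactive in fed cells. It measured 58.9, 56.7, 60.6 and 71.5 CPM in wild-type “good”, 66.2, 64.4, 61.7 and 67.6 in wild-type “poor”, 80.4, 83.2, 72.5 and 75.8 in R6/1 “good” and 81.0, 84.2, 83.0 and 85.8 in R6/1 “poor” mice. Every R6/1 mouse stood above every wild-type mouse, the nearest being 72.5 CPM in R6/1 “good” and 71.5 CPM in wild-type “good”. On the log2 scale the fold change was 0.35, SE 0.051, adjusted p = 4.91e-05, with 0.30, SE 0.066, adjusted p = 0.00418 in the “good” and 0.40, SE 0.062, adjusted p = 0.000358 in the “poor” group. The paralog Ulk2 had a log2 fold change of 0.063, SE 0.045, adjusted p = 0.304 between genotypes. For Atg13, Rb1cc1 and Atg101 the values were −0.043, 0.086 and −0.13, and the interval of Atg101 ran from −0.26 to 0.0001.

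Among the cargo receptors, Sqstm1, Optn and Wdfy3 were higher in R6/1 mice and Nbr1 did not pass the test. Sqstm1 (ENSMUSG00000015837, chr11:50199366-50210827, minus strand, GRCm38) encodes p62, which binds both ubiquitin and LC3 and is itself degraded by autophagy. Its levels were 413, 372, 399.7 and 391 CPM in wild-type “good”, 393, 374, 356 and 362 in wild-type “poor”, 526, 488, 440.2 and 458 in R6/1 “good” and 447, 486, 452 and 463 in R6/1 “poor” mice. The 8 R6/1 and 8 wild-type mice did not overlap, with a lowest R6/1 value of 440.2 CPM and a highest wild-type value of 413 CPM. Over both performance groups the log2 fold change was 0.30, SE 0.046, adjusted p = 8.78e-05, and in the R6/1 “good” and “poor” groups it was 0.32, SE 0.060, adjusted p = 0.00136 and 0.27, SE 0.055, adjusted p = 0.0022. Ulk1 and Sqstm1 were the only members without overlap between the genotypes, 2 of 39, while 9.07% of all genes tested had none.

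Optn encodes optineurin, a receptor for damaged mitochondria and aggregates whose mutations cause amyotrophic lateral sclerosis and glaucoma. It measured 14.5, 9.77, 17.7 and 13.6 CPM in wild-type “good”, 14.3, 16.3, 17.6 and 18.3 in wild-type “poor”, 20.6, 17.2, 20.4 and 13.9 in R6/1 “good” and 23.0, 20.1, 21.2 and 17.4 in R6/1 “poor” mice. The groups overlapped, since R6/1 “good” mouse 4 lay below 6 of the 8 wild-type mice, and 7 of 8 R6/1 mice were above the wild-type median. The log2 fold change was 0.33, SE 0.12, adjusted p = 0.0361, and it was called in R6/1 “poor” (0.42, SE 0.14, adjusted p = 0.0328) but not in R6/1 “good” mice (0.24, SE 0.15, adjusted p = 0.265). Whether the R6/1 groups differed was tested directly, and they did not pass (0.20, SE 0.14, adjusted p = 0.496). With 1 mouse left out, the call by genotype was lost for 9 of the 16 mice (adjusted p up to 0.0737) and that in R6/1 “poor” mice for 6 of 12 (up to 0.118).

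Wdfy3 encodes ALFY, a scaffold that links p62-bound aggregates to the autophagy machinery. The mice showed 155, 146, 176 and 166 CPM in wild-type “good”, 142, 167, 165 and 190.5 in wild-type “poor”, 193, 168, 179 and 195 in R6/1 “good” and 208, 201, 217 and 186 in R6/1 “poor” mice. All 8 R6/1 mice were above the wild-type median, and 5 were above every wild-type mouse. By genotype the log2 fold change was 0.24, SE 0.063, adjusted p = 0.00598, with 0.31, SE 0.075, adjusted p = 0.00673 in R6/1 “poor” and 0.17, SE 0.075, adjusted p = 0.112 in R6/1 “good” mice. Nbr1, a receptor related to p62, lay at 205 to 225 CPM in R6/1 and 212.5 to 241 CPM in wild-type mice, with a log2 fold change of −0.075, SE 0.038, adjusted p = 0.141.

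**Figure D2:**
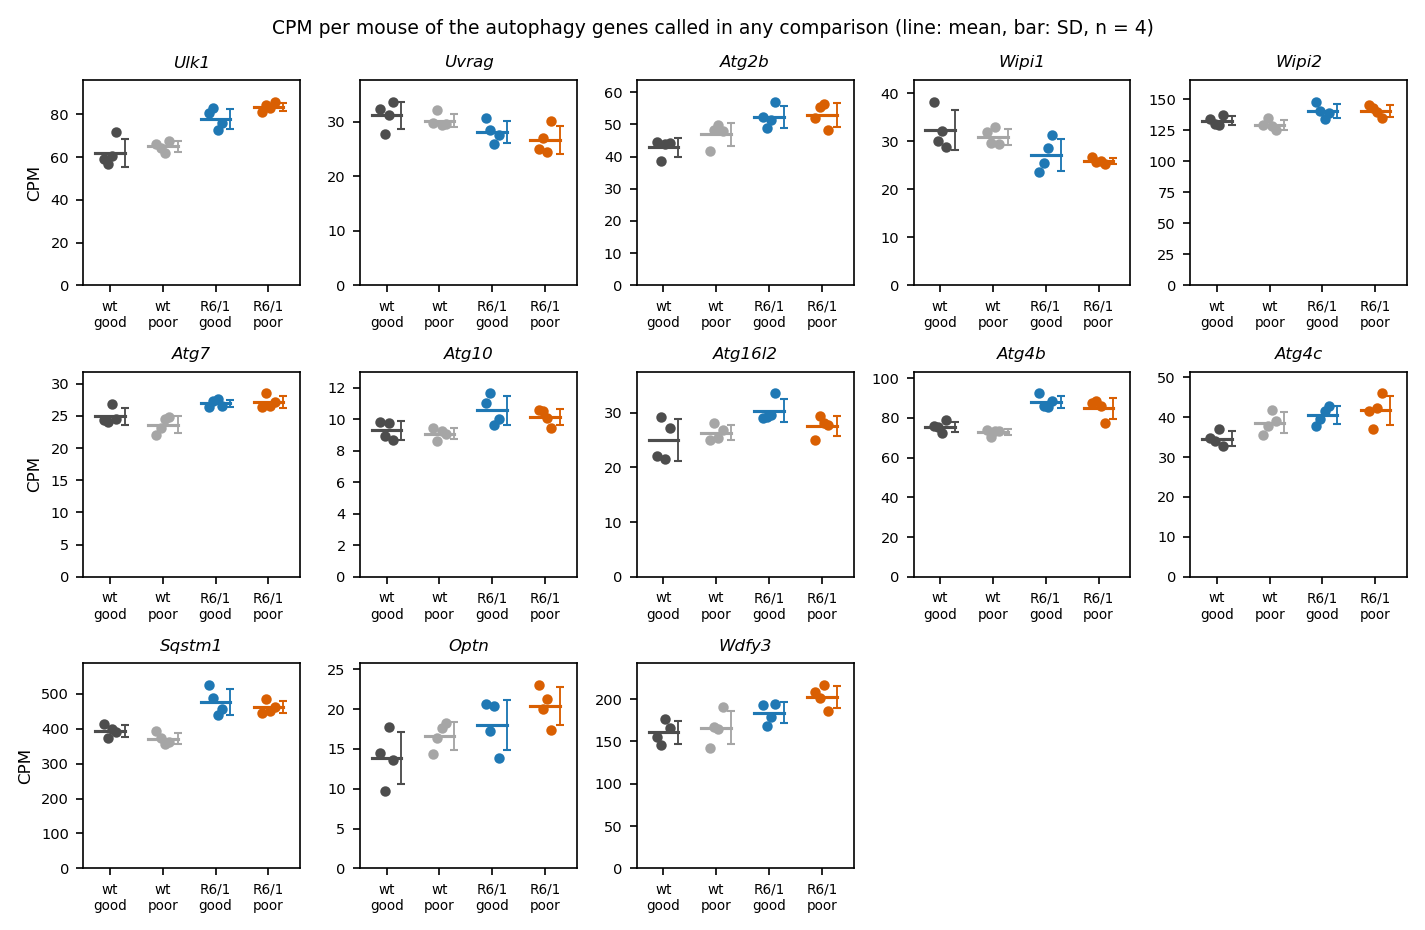
CPM in each of the 16 mice of the 13 autophagy genes called in any comparison, 1 panel per gene with the y axis from 0, points for mice, horizontal lines for the group mean and bars for the SD (n = 4). Ulk1 and Sqstm1 show the genotypes apart in all 16 mice, and Wipi1 and Uvrag are the 2 genes with lower R6/1 means that passed the test.

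The ATG4 proteases cleave newly made LC3 and GABARAP and later release them from membranes, and all 4 had positive fold changes, of which Atg4b and Atg4c passed. Atg4b (ENSMUSG00000026280, chr1:93751500-93790610, plus strand, GRCm38), the most active of the family, measured 75.7, 75.5, 72.2 and 78.8 CPM in wild-type “good”, 73.8, 70.5, 73.4 and 73.4 in wild-type “poor”, 92.3, 85.9, 85.4 and 88.8 in R6/1 “good” and 87.3, 88.6, 86.3 and 77.3 in R6/1 “poor” mice. R6/1 “poor” mouse 4 was the only R6/1 mouse within the wild-type range, which reached 78.8 CPM. Atg4b had a log2 fold change of 0.22, SE 0.040, adjusted p = 0.000302, and it was 0.25, SE 0.047, adjusted p = 0.00153 for R6/1 “good” and 0.19, SE 0.051, adjusted p = 0.0115 for R6/1 “poor” mice. Atg4c stood at 34.9, 33.9, 36.9 and 32.7 CPM in wild-type “good”, 35.6, 37.8, 41.9 and 39.1 in wild-type “poor”, 37.7, 39.5, 41.6 and 42.8 in R6/1 “good” and 41.5, 37.0, 42.4 and 45.9 in R6/1 “poor” mice. Its groups overlapped, with 3 of 8 R6/1 mice above every wild-type mouse, and its log2 fold change was 0.17, SE 0.057, adjusted p = 0.031, a call lost without any of 8 mice of the 16 (adjusted p up to 0.0758). Atg4a was the least abundant of the 39 genes, at 29 to 67 counts per library, and its estimate was the widest (0.38, SE 0.16, adjusted p = 0.0747, interval 0.043 to 0.71). Atg4d gave 0.013, SE 0.059, adjusted p = 0.894.

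Of the lipid transfer proteins and phosphoinositide readers, Atg2b and Wipi2 were higher and Wipi1 lower in R6/1 mice. Atg2b (ENSMUSG00000041341, chr12:105616136-105685211, minus strand, GRCm38), which moves lipid into the growing membrane, measured 44.4, 38.6, 44.0 and 44.3 CPM in wild-type “good”, 41.7, 48.1, 49.9 and 48.1 in wild-type “poor”, 52.2, 49.0, 51.3 and 57.0 in R6/1 “good” and 51.9, 55.5, 56.4 and 48.3 in R6/1 “poor” mice. Wild-type “poor” mouse 3, at 49.9 CPM, lay above the lowest R6/1 mice, and 6 of 8 R6/1 mice lay above every wild-type mouse. The log2 fold change was 0.23, SE 0.055, adjusted p = 0.00336, with 0.22, SE 0.070, adjusted p = 0.0308 and 0.24, SE 0.071, adjusted p = 0.0208 in the R6/1 “good” and “poor” groups, whereas its paralog Atg2a gave 0.023, SE 0.070, adjusted p = 0.826. The call in R6/1 “good” mice was lost without wild-type “poor” mouse 1 or R6/1 “good” mouse 1, 3 or 4 (adjusted p up to 0.109), and that in R6/1 “poor” mice without R6/1 “poor” mouse 2 or 3 (up to 0.0849).

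Wipi1 and Wipi2 bind the PI3P made by the class III PI3-kinase, and WIPI2 recruits ATG16L1 to it. Wipi1 measured 38.1, 30.0, 32.2 and 28.8 CPM in wild-type “good”, 31.8, 29.6, 32.9 and 29.4 in wild-type “poor”, 23.7, 25.4, 28.5 and 31.2 in R6/1 “good” and 26.8, 25.6, 25.9 and 25.2 in R6/1 “poor” mice. R6/1 “good” mouse 4 was the only R6/1 mouse above the wild-type median, and all 4 R6/1 “poor” mice lay below every wild-type mouse. Between R6/1 “poor” and all wild-type mice 3 of the 39 genes had no overlap, as had 3116 of all 19363 genes tested. The log2 fold change of Wipi1 was −0.25, SE 0.065, adjusted p = 0.00553, with −0.29, SE 0.074, adjusted p = 0.00987 in R6/1 “poor” and −0.22, SE 0.088, adjusted p = 0.0806 in R6/1 “good” mice. Wipi2 stood at 134, 129.9, 129.6 and 137 CPM in wild-type “good”, 129, 135, 129 and 126 in wild-type “poor”, 148, 141, 134 and 139 in R6/1 “good” and 146, 143, 139.7 and 135 in R6/1 “poor” mice. Its change in the other direction was the smallest of those called, 0.10, SE 0.035, adjusted p = 0.0354, with 6 of 8 R6/1 mice above every wild-type mouse, and the call was lost without any of 11 mice of the 16 (adjusted p up to 0.0854). Atg9a, the scramblase carried by seed vesicles, gave −0.049, SE 0.052, adjusted p = 0.493.

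The conjugation enzymes attach ATG12 to ATG5 and LC3 to lipid. Atg7, the E1 enzyme of both systems, measured 24.3, 24.0, 26.9 and 24.5 CPM in wild-type “good”, 22.0, 23.1, 24.6 and 24.8 in wild-type “poor”, 26.4, 27.3, 27.6 and 26.5 in R6/1 “good” and 26.4, 28.5, 26.5 and 27.1 in R6/1 “poor” mice. All 8 R6/1 mice were above the wild-type median, but wild-type “good” mouse 3 lay within the R6/1 range, and the log2 fold change was 0.15, SE 0.044, adjusted p = 0.0114. Atg10, the E2 enzyme for ATG12, stood at 9.81, 8.94, 9.78 and 8.66 CPM in wild-type “good”, 9.43, 8.60, 9.23 and 9.07 in wild-type “poor”, 11.0, 11.6, 9.64 and 9.99 in R6/1 “good” and 10.6, 10.5, 10.1 and 9.45 in R6/1 “poor” mice, with a log2 fold change of 0.17, SE 0.062, adjusted p = 0.0377. Its call was lost without any of 10 mice of the 16 (adjusted p up to 0.0812). Neither Atg7 (adjusted p = 0.0832 and 0.0625) nor Atg10 (adjusted p = 0.0843 and 0.186) passed in R6/1 “good” or “poor” mice taken alone.

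Atg16l2, a paralog of the scaffold Atg16l1, was called only in R6/1 “good” mice against wild-type mice. It measured 22.0, 29.2, 21.5 and 27.1 CPM in wild-type “good”, 25.1, 28.1, 25.4 and 26.7 in wild-type “poor”, 29.0, 29.2, 29.6 and 33.5 in R6/1 “good” and 25.0, 29.4, 28.2 and 27.8 in R6/1 “poor” mice. In that group 3 mice lay close to the highest wild-type mouse (29.2 CPM) and mouse 4 stood above them, with a log2 fold change of 0.24, SE 0.085, adjusted p = 0.0479. In R6/1 “poor” mice it was 0.10, SE 0.086, adjusted p = 0.387, and the R6/1 groups did not differ beyond their spread (−0.12, SE 0.076, adjusted p = 0.444). The call was lost without any of 9 mice of the 12, all 4 R6/1 “good” mice among them (adjusted p up to 0.157), with DESeq2 and with RLE factors. Atg3, Atg5, Atg12 and Atg16l1 had log2 fold changes by genotype of −0.036, 0.085, −0.12 and −0.073 and did not pass.

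In the class III PI3-kinase complexes, which share the kinase Pik3c3 (VPS34), its partner Pik3r4 and Becn1, only Uvrag passed the test. UVRAG takes the place of ATG14 in the complex that acts on late autophagosomes and endosomes. Uvrag measured 32.3, 27.8, 31.3 and 33.7 CPM in wild-type “good”, 29.8, 32.1, 29.4 and 29.7 in wild-type “poor”, 30.8, 28.6, 25.9 and 27.5 in R6/1 “good” and 25.1, 27.1, 24.6 and 30.1 in R6/1 “poor” mice. R6/1 “good” mouse 1 was the only R6/1 mouse above the wild-type median, and the groups overlapped. The log2 fold change was −0.16, SE 0.057, adjusted p = 0.0321, with −0.20, SE 0.071, adjusted p = 0.0446 in R6/1 “poor” and −0.12, SE 0.067, adjusted p = 0.192 in R6/1 “good” mice. The call by genotype was lost without R6/1 “good” mouse 3 or R6/1 “poor” mouse 1, 2 or 3 (adjusted p up to 0.0674), and that in R6/1 “poor” mice without any of 10 mice of the 12 (up to 0.162). Becn1, Pik3c3, Pik3r4, Atg14 and Ambra1 ran from −0.10 (Pik3r4) to 0.055 (Ambra1) on the log2 scale, and none passed in any comparison. Their intervals by genotype lay between −0.28 and 0.16 on the log2 scale.

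The LC3 and GABARAP genes encode the ubiquitin-like proteins that mark autophagosomes, and none of the 5 passed in any comparison. Per length of the principal transcript, Gabarapl1 was the most abundant, at 315 CPM per kb over all mice, the highest of the 39 genes. Gabarapl2 (117), Gabarap (108), Map1lc3a (102) and Map1lc3b (91.2) followed. Their wild-type means in CPM per kb, with the SD over 8 mice, were 308 ± 11.7, 116 ± 9.81, 108 ± 5.45, 102 ± 8.34 and 92.5 ± 5.55 in the same order. Gabarapl1 stood apart from the rest in every mouse, whereas neighbours in this order among the other 4 overlapped in their range over the mice. Per length of the merged exons of all transcripts, Gabarapl1 stayed highest (285 CPM per kb), but Map1lc3a (95.8) came before Gabarapl2 (84.4) and Gabarap (79.5), and Map1lc3b fell to 30.7, so the order of the other 4 depends on the length used.

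Gabarapl1, of the GABARAP subfamily, measured 588, 590.1, 571 and 559 CPM in wild-type “good”, 546, 549, 543 and 532 in wild-type “poor”, 679, 614, 559 and 590.2 in R6/1 “good” and 536, 576, 551 and 594 in R6/1 “poor” mice. Its log2 fold change by genotype was 0.069, SE 0.049, adjusted p = 0.29, the largest of the family, and the genotypes overlapped. Map1lc3b, the form most often used as an autophagosome marker, measured 252, 239, 229.9 and 249.5 CPM in wild-type “good”, 239.6, 234, 211 and 219 in wild-type “poor”, 255, 244, 229.6 and 236 in R6/1 “good” and 204, 221, 201 and 229 in R6/1 “poor” mice, and gave −0.043, SE 0.054, adjusted p = 0.57. The remaining 3 had log2 fold changes of 0.033 (Gabarapl2), 0.023 (Gabarap) and 0.0007 (Map1lc3a). In CPM, Gabarapl2 ranged from 165 to 226, Gabarap from 135 to 155 and Map1lc3a from 96.0 to 131 over the 16 mice. The 95% intervals of all 5 by genotype lay between −0.16 and 0.17 on the log2 scale.

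The lysosomal members did not pass either. Lamp1 and Lamp2, the main glycoproteins of the lysosomal membrane, gave 0.071, SE 0.050, adjusted p = 0.287 and 0.10, SE 0.050, adjusted p = 0.127, and Tfeb, a transcription factor that drives lysosomal and autophagy genes, gave −0.082, SE 0.10, adjusted p = 0.57. Tfeb stood at 6.32 to 11.1 CPM in R6/1 and 7.98 to 10.4 CPM in wild-type mice. Per kb of the principal transcript, Sqstm1 (209) and Lamp1 (161) were the most abundant members after Gabarapl1, while Atg4a (0.989) and Tfeb (3.96) were the least.

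Promoters were compared because TFEB binds the E-box CACGTG, most strongly within TCACGTGA, in promoters of this pathway. RefSeq promoters of GRCm38.p6, running from 250 bases before to 50 after an annotated start, were at hand for 32 of the 39 genes, while Becn1, Pik3c3, Rb1cc1, Map1lc3a, Atg12, Atg16l1 and Wdfy3 had no entry. Both motifs are palindromes, so a match reads the same on both strands, and the longer motif contains the shorter. The shorter was found in 5 of the 32 (Lamp1, Atg3, Atg5, Atg7 and Atg14), or 15.6%, beside 8.09% of all 27025 genes of the table, and TCACGTGA in 1 (Atg3), beside 1.125%. For 4 of the 32 genes the window lay over 1000 bases inside the outermost GENCODE start, by 27999 bases in Atg7, 3405 in Atg4b, 2215 in Atg14 and 1886 in Wipi2, so the matches of Atg7 and Atg14 are at inner starts. Of the other 28 genes 3, or 10.7%, held CACGTG. Ulk1, Sqstm1, Atg2b and Atg4b, called in 3 comparisons, held none in this window, which for Atg4b lies at an inner start. Atg7, called by genotype, held CACGTG. The motif CCAAT, the core letters bound by NF-Y, was found on either strand in 28.1% of the 32 genes beside 41.1% of all, and GTAAACA, a letter string bound by FOXO factors, in 0 beside 4.05%. The windows were rich in GC, with a median of 60.0% and 20 CpG per promoter beside 52.7% and 7 over the table. Shown are the promoters of the 2 genes that separated the genotypes and, for contrast, of the 2 genes with more than 1 match, in lower case and 5′ to 3′ on the gene’s strand, with capitals for CACGTG and for the whole TCACGTGA. In Lamp1 the matches begin 61, 45, 28 and 15 bases before the start, and in Atg3 the hexamers begin 94 and 71 bases before it.
Ulk1, chr5:110810032-110810331, minus strand: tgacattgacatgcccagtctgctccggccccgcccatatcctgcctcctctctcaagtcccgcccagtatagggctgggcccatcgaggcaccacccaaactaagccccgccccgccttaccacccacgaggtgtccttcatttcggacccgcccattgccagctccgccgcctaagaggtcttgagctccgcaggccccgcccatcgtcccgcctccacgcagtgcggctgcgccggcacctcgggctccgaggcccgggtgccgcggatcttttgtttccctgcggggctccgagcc
Sqstm1, chr11:50210771-50211070, minus strand: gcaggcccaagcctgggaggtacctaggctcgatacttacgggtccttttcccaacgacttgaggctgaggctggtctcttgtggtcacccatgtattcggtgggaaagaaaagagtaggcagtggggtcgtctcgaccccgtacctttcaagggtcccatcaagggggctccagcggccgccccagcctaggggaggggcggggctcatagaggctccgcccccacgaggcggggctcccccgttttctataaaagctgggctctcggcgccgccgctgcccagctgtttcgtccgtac
Lamp1, chr8:13158911-13159210, plus strand: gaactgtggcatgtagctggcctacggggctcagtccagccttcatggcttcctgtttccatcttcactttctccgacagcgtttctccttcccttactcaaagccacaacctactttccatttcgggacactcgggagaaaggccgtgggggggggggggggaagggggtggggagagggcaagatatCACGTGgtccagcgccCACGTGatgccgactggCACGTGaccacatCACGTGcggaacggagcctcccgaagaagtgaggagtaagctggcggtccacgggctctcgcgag
Atg3, chr16:45158579-45158878, plus strand: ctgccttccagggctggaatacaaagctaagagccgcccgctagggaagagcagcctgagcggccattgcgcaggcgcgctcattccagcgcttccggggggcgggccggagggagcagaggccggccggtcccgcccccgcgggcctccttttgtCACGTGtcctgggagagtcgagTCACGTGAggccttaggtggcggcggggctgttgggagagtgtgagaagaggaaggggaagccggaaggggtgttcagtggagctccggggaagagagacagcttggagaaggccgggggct

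Whether autophagy genes followed performance was asked within each genotype. In R6/1 “poor” against R6/1 “good” mice edgeR called 0 of the 39 genes, as it called 0.0% of all genes tested. At an unadjusted p under 0.05 there were 2 of 39, beside 15.5% of all genes. DESeq2, run as an alternative, also called 0 of the 39, although it called 227 genes higher and 129 lower in all. The smallest p belonged to Rb1cc1, whose product FIP200 scaffolds the ULK1 complex, then to Map1lc3b and Wdfy3. Rb1cc1 measured 103, 97.3, 95.1 and 95.7 CPM in R6/1 “good” and 123, 92.5, 123 and 118 CPM in R6/1 “poor” mice, with 0.24, SE 0.091, adjusted p = 0.281. R6/1 “poor” mouse 2, the only one of its group among libraries 1 to 8, was the lowest of the 8, and within those libraries the log2 fold change turned to −0.070. Every R6/1 “good” mouse was in that set as well. Library number and performance therefore cannot be told apart for any gene of this comparison, those named below included.

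Map1lc3b measured 255, 244, 229.6 and 236 CPM in R6/1 “good” and 204, 221, 201 and 229 CPM in R6/1 “poor” mice, without overlap and with a log2 fold change of −0.16, SE 0.065, adjusted p = 0.294. Wdfy3, with levels given above, had 0.16, SE 0.072, adjusted p = 0.325. Pik3c3 (58.4 to 63.3 CPM in “good” against 55.3 to 57.2 in “poor” mice) and Nbr1 (217 to 225 against 205 to 215 CPM) did not overlap either. These 3 of 39 genes stand beside 6.45% of all genes tested without overlap of 4 and 4 mice. The log2 fold changes of the 39 genes ran from −0.21 (Pik3r4) to 0.24 (Atg4a), with a median of 0.0022, and the widest interval, that of Atg4a, was −0.24 to 0.72. For Ulk1 and Sqstm1, the difference between R6/1 groups was 0.11 (interval −0.015 to 0.24) and −0.033 (interval −0.19 to 0.12).

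In wild-type “poor” against wild-type “good” mice 0 of the 39 genes were called, as were 0.0% of all genes, and 0 of the 39 had an unadjusted p under 0.05, beside 2.44% of all. DESeq2 called 0 genes there. The smallest p belonged to Atg4c (log2 fold change 0.16, SE 0.078, unadjusted p = 0.0643), Becn1 (−0.13, SE 0.074, unadjusted p = 0.0983) and Atg2b (0.13, SE 0.082, unadjusted p = 0.127), with an adjusted p of 0.9998 for each. Becn1, the scaffold of the class III PI3-kinase, measured 81.4, 83.6, 74.4 and 85.35 CPM in “good” and 78.1, 77.5, 70.1 and 70.1 CPM in “poor” mice, and the groups overlapped. Within libraries 1 to 8, which held 1 wild-type “poor” mouse, the value of Atg2b turned to −0.088. Gabarapl1 was the only member without overlap, at 559 to 590.1 CPM in wild-type “good” and 532 to 549 CPM in wild-type “poor” mice, which is 1 of 39 beside 1.78% of all genes tested.

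Whether the effect of performance differed between the genotypes was tested by the interaction over all 16 mice. It passed for 0 of the 39 genes and for 0.0% of all genes in edgeR, and 0 of the 39 had an unadjusted p under 0.05, beside 5.77% of all. With DESeq2 it passed for 1 gene of all, which is not among the 39. The smallest p belonged to Pik3c3 (−0.14, SE 0.072, unadjusted p = 0.0676), Atg16l1 (−0.16, SE 0.10, unadjusted p = 0.128) and Atg16l2 (−0.21, SE 0.13, unadjusted p = 0.129), each with an adjusted p of 0.826. Pik3c3 measured 56.1, 56.7, 54.7 and 56.6 CPM in wild-type “good” and 58.7, 56.7, 59.6 and 54.6 CPM in wild-type “poor” mice, beside 63.3, 58.4, 58.9 and 62.0 CPM in R6/1 “good” and 57.2, 55.7, 57.2 and 55.3 CPM in R6/1 “poor” mice. Atg16l1, the scaffold that sets where LC3 is attached, had a log2 fold change between performance groups of −0.15 in R6/1 and −0.0051 in wild-type mice, and neither it nor the difference passed the test.

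**Figure D3:**
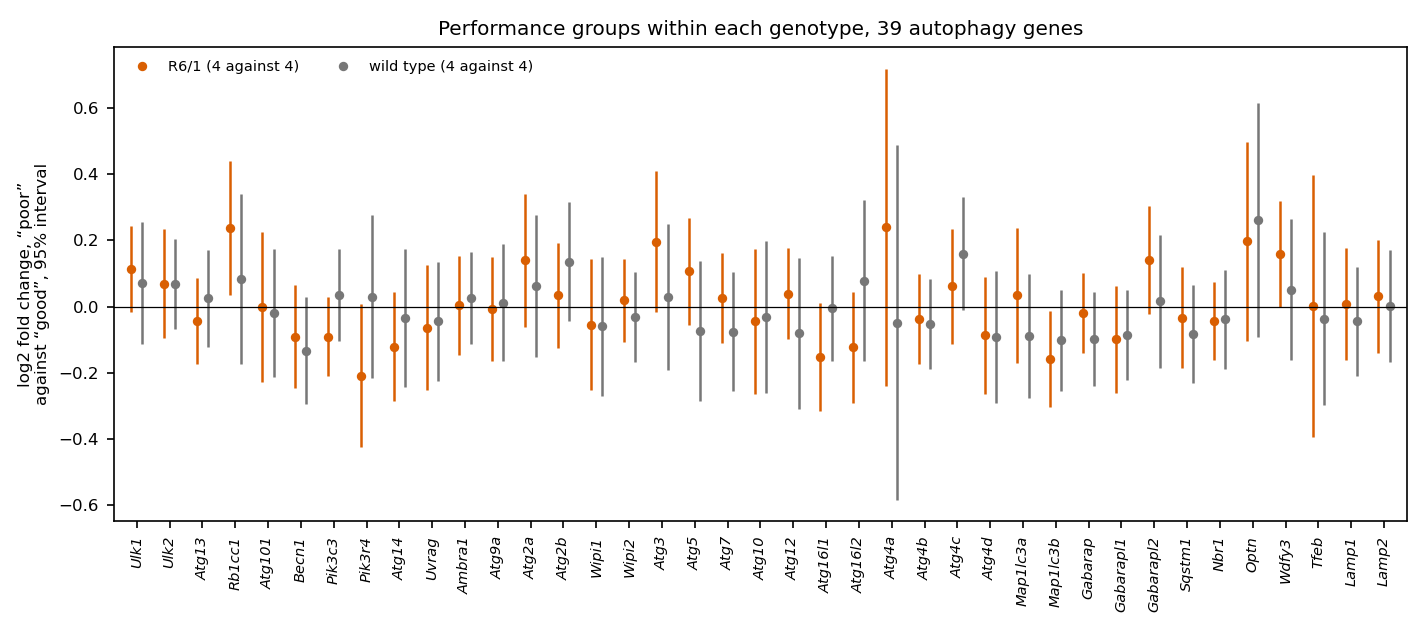
Log2 fold change of “poor” against “good” mice for each of the 39 autophagy genes, in R6/1 (orange) and in wild-type mice (grey), 4 against 4 mice each, with lines for the 95% interval. No gene passed after adjustment, and the R6/1 estimates run from −0.21 (Pik3r4) to 0.24 (Atg4a).

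Of 111 further genes of the pathway, 32 were higher and 14 lower in R6/1 mice by genotype (41.4%, beside 34.2% of all genes tested), 22 and 7 in R6/1 “good” (26.1%, beside 24.6%) and 25 and 11 in R6/1 “poor” mice (32.4%, beside 28.5%). The counts of the single lists below are by genotype and stand beside 17.2% of all genes tested called higher and 17.0% called lower. Among 23 genes of mTORC1, AMPK and their regulators, which set the activity of ULK1, 6 were higher and 4 lower. Rragd, 1 of the Rag GTPases that bring mTORC1 to the lysosome, gave −0.74, SE 0.081, adjusted p = 2.58e-06, its relative Rraga gave 0.29, SE 0.034, adjusted p = 4.87e-06, and the mTOR inhibitor Deptor gave −0.57, SE 0.097, adjusted p = 0.00018. Of 12 further core autophagy genes 2 were higher and 2 lower, with Wdr45b (0.26, SE 0.050, adjusted p = 0.000645) and Wdr45 (−0.21, SE 0.055, adjusted p = 0.00739), relatives of the WIPI genes, in opposite directions and Atg9b, the paralog of Atg9a, at 0.71, SE 0.18, adjusted p = 0.00449.

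Genes of autophagosome-lysosome fusion were higher in 7 of 14 cases and lower in 0, beside the same 17.2% and 17.0% of all genes, among them the tethering subunits Vps41 (0.18, SE 0.037, adjusted p = 0.00101) and Vps33a (0.20, SE 0.044, adjusted p = 0.00222) and the SNARE Stx7 (0.28, SE 0.061, adjusted p = 0.0016). Taken by group, 7 of the 14 were higher in R6/1 “good” mice but 2 in R6/1 “poor” mice, with 0 lower in either. Of all genes tested 12.1% and 13.5% were higher there. Of 13 further selective autophagy receptors and kinases 2 were higher and 2 lower, the ferritin receptor Ncoa4 (0.25, SE 0.052, adjusted p = 0.00103), Calcoco1 (−0.30, SE 0.074, adjusted p = 0.00449) and the mitophagy kinase Pink1 (−0.14, SE 0.046, adjusted p = 0.028) having the smallest p. Among 41 genes of lysosomal hydrolases, membrane proteins and the proton pump 15 were higher and 4 lower, with Atp6ap1 (0.32, SE 0.043, adjusted p = 1.61e-05) and Atp6v1a (0.47, SE 0.081, adjusted p = 0.000197) of the pump among those higher. Of 8 transcription factors of these genes 0 were higher and 2 lower, Foxo1 (−0.88, SE 0.099, adjusted p = 3.87e-06) and the repressor Zkscan3 (−0.27, SE 0.096, adjusted p = 0.034). Of the 111 genes 0 passed in R6/1 “poor” against R6/1 “good” mice, in wild-type “poor” against wild-type “good” mice or in the interaction.

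Markers of cell types moved with genotype beside the autophagy genes. In R6/1 mice the markers called lower numbered 3 of 5 for cholinergic interneurons, 6 of 9 for astrocytes, 4 of 8 for oligodendrocytes, 8 of 8 for microglia, 6 of 6 for endothelial cells and 3 of 6 for pericytes and smooth muscle, beside 17.0% of all genes tested called lower. For oligodendrocyte precursors (4 markers), cortical neurons (6), ependymal cells (5) and choroid plexus (4) none was called, nor for hypothalamic neurons (5 of 8 tested), and of 4 lateral septal markers 1 was higher. The summed astrocyte markers were 5873 to 6537 CPM in wild-type “good”, 5500.0 to 6141 in wild-type “poor”, 3464 to 4161 in R6/1 “good” and 3611 to 4161 in R6/1 “poor” mice. For microglia the sums were 674 to 803, 631 to 727, 493 to 604 and 456 to 567 CPM in the same order. Cortical markers ran from 9.65 to 693, 69.7 to 419.8, 17.9 to 475 and 32.8 to 767 CPM, a wide range within every group. No listed marker was at 0 in every mouse. The part of these shifts in the autophagy results was not tested.

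For 6 members a neighbouring gene covered over 15% of the exonic length, 5 of them on the opposite strand and Gm29253 on the same strand as Atg9a. Since the strand setting of the counts is not given, reads there cannot be assigned with certainty, and for Atg9a a strand setting would not separate them. Sqstm1 shares 17.3% of its exonic length with Mrnip on the opposite strand, which stood at a mean of 3.33 CPM against 426 CPM for Sqstm1 and was itself higher in R6/1 mice (log2 fold change 0.51, adjusted p = 0.00902). Uvrag shares 17.6% with Gm45187 (0 to 8 counts per library). The others were Becn1 with Cntd1 (43.9%), Atg9a with Gm29253 (31.8%, 0 to 3 counts per library), Gabarapl1 with 1700101I11Rik (28.3%) and Atg4d with Kri1 (19.3%), and the highest mean of these partners was that of Kri1, 14.6 CPM.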

How the data were processed

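Striatal RNA of 16 mice, 4 per group, was used as counts per gene. The authors made TruSeq stranded mRNA libraries from 1 mouse each, sequenced paired ends on a NextSeq and mapped them to GRCm38 with TopHat 1.0.1; the submitters’ processing notes also name CASAVA and Bowtie. Whole-number raw counts of 55450 genes are what the authors deposited, before their own normalization with DESeq2. For the read counter, its strand setting and the gene annotation, the release and options are not stated in the labels or methods.

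Groups came from the sample titles, and no column was left out. Totals ran from 16155356 to 24897354 counts per library. No pair of libraries of a group agreed within sampling noise (chi-square per gene 5.55 to 38.6). Genes reaching 10 counts in 4 or more libraries were tested with edgeR 4.0.16 (quasi-likelihood, robust, TMM, two-sided), with Benjamini-Hochberg adjustment over all 19363 and a threshold of 0.05, in 6 comparisons. Standard errors were derived from the same fits, and intervals are 95% intervals. CPM per kb used the principal transcript of GENCODE vM21. Alternatives were DESeq2 1.42.0, RLE factors, no filter, a minimum of 50 counts, replicate numbers as a block, all groups in 1 fit, library number as a covariate or within sets, wild-type mice of the same performance, and leaving out each mouse. R 4.3.3, Python 3.11.15, pandas 2.3.3 and matplotlib 3.10.9 were used.

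The 39 genes, their roles, the 6 lists of other pathway genes and the 13 marker lists were chosen with earlier results of these data known. Genes called in any comparison were given in every mouse, the 3 genes with the smallest p in each comparison of performance and in the interaction were named, the LC3 and GABARAP family was given in full, and up to 3 called genes with the smallest adjusted p were named from each other list, apart from 1 that is not reported here. Pik3c3 and Nbr1 in R6/1 mice and Gabarapl1 in wild-type mice were added after their values were seen. Behaviour and RT-qPCR were not analysed here.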

Additional observations from a re-analysis of the deposited data

Results flagged for a closer look

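In 88 sets of 4 mice, 22 genes in 4 groups, Dixon’s test was applied to the mouse farthest from the rest, and 5 were past its 95% limit, while chance gives about 1 in 20. Atg2b was 38.6 CPM in wild-type “good” mouse 2, against 44.0 to 44.4 in the other 3. In wild-type “poor” mouse 2, Uvrag was 32.1 CPM (29.4 to 29.8 in the others) and Atg4b 70.5 CPM (73.4 to 73.8). Atg16l2 was 33.5 CPM in R6/1 “good” mouse 4 (29.0 to 29.6), and Map1lc3a 131 CPM in R6/1 “poor” mouse 4 (107 to 109).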

How the results depend on the processing

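By genotype 12 of the 39 genes were called. All 12 kept their direction in every alternative run, as did the 5 called in R6/1 “good” and the 8 called in R6/1 “poor” mice. With library number as a covariate 11 of the 12 kept their call by genotype, all but Atg10. In R6/1 “good” mice 4 of the 5 did, all but Atg16l2, and in R6/1 “poor” mice all 8 did. Over all genes that covariate gave 3870 higher and 3669 lower by genotype, 1948 and 2022 in R6/1 “good” and 2826 and 3036 in R6/1 “poor” mice. Without a filter on low counts, where 40830 genes were tested, the counts by genotype and in R6/1 “good” mice were 7 and 3. Over all genes that run called 2860 higher and 2902 lower by genotype, and 1685 and 2115 in R6/1 “good” mice. The main run called 3325 and 3295 by genotype, and 2350 and 2408 in R6/1 “good” mice. Within libraries 1 to 8 the counts of the 39 genes were also 7 and 3. Of all genes tested there, 2088 were higher and 2280 lower by genotype, and 1640 and 1954 in R6/1 “good” mice. R6/1 “poor” mice number 1 in that set, and that mouse was assumed to vary like the others, so no count is given. Libraries 9 to 16 hold no R6/1 “good” mouse, so the comparison by genotype and that of R6/1 “poor” mice are the same fit there, which gave 3. Of all genes tested that fit called 1423 higher and 1978 lower. With wild-type “poor” mice as the only controls R6/1 “poor” gave 5. Of all genes tested that fit called 1642 higher and 2093 lower, beside 2619 and 2892 with all wild-type mice. The fits within libraries and with these controls hold fewer mice. Leaving out each mouse gave 8 to 12 genes by genotype, 3 to 5 in R6/1 “good” (3 without wild-type “poor” mouse 1 or R6/1 “good” mouse 1 or 3) and 5 to 10 in R6/1 “poor” mice (5 without R6/1 “poor” mouse 3). Over all genes these runs called 2866 to 3334 higher and 3005 to 3351 lower by genotype. The ranges were 1593 to 2347 and 1847 to 2432 in R6/1 “good”, and 1593 to 2618 and 2069 to 2965 in R6/1 “poor” mice. In R6/1 “poor” against R6/1 “good” mice Rb1cc1 turned to −0.0703 within libraries 1 to 8. Library number as a covariate gave the same value, since only those libraries hold both groups, with 1 R6/1 “poor” mouse. In wild-type mice Atg2b turned to −0.0882 within libraries 1 to 8. The cause was not tested. Of 746 single values under alternatives, 622 kept direction and call, 121 lost the call and 3 turned. The 622 include values of the performance comparisons and the interaction, which were not called in the main run and had no call to lose. Fits that coincide, as above, were counted each time. The comparisons of performance and the interaction gave 0 in every alternative run; the fit within libraries 9 to 16 could not be made where they hold no R6/1 “good” mouse.

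The replicate numbers of the labels are shared between groups, and the labels give no pairing and no litter. Deviations of same-numbered mice correlated from −0.346 to 0.233, with 5 of 24 pairs above 0.1. Between mice of different groups the median was 0.0645 within the same set of library numbers, with 17 of 42 pairs above 0.1. Across sets it was −0.0428, with 10 of 54. These values cannot show whether mice were related. The paper reports that some mice of the same litter ranked alike. Litter was not tested. With the replicate number as a block, the counts were 13 by genotype, 5 in R6/1 “good”, 7 in R6/1 “poor” (without Uvrag) and 0 in the others, and over all genes R6/1 “poor” against R6/1 “good” gave 46 higher and 50 lower. Over all genes the block gave 3156 higher and 3162 lower by genotype. Against wild-type mice it gave 2286 and 2356 in R6/1 “good” and 2369 and 2764 in R6/1 “poor” mice. Depth limits Atg4a, at 29 to 67 counts.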
